A study of Mus musculus with 16 samples.

Results

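The collagen genes are described here in mouse mammary tumors that lack Trp53. Members were the Entrez genes whose mouse symbol has the form Col, a number, a, a number, and which had at least 10 counts in total over the 15 tumors. This gave 42 members, from 44 collagen symbols among 27179 genes of the count table. Col22a1 and Col26a1 were under the minimum. By class the members were 11 fibrillar genes, 8 fibril-associated genes (FACIT), 6 type VI genes, 6 type IV genes, 4 transmembrane genes, 3 genes of types VIII and X, 2 multiplexins, Col7a1 of the anchoring fibrils and Col28a1.

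Collagens are triple helices of 3 alpha chains, which may be copies of 1 gene product or products of different genes. Fibrillar collagens such as types I, III and V form the fibers of connective tissue, and FACIT collagens sit on their surface. Type IV collagen builds the sheet of the basement membrane under epithelia and around vessels, and type VII anchors that sheet to the tissue below. In mammary carcinomas, fibroblasts are known as the main makers of fibrillar collagen, while epithelial and endothelial cells make type IV. TGF beta is a known inducer of fibrillar collagen genes in fibroblasts.

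Bulk RNA was sequenced from 3 tumors in each of 5 groups, all family F transplants (F2 mTDT, Trp53 null) grown in the mammary fat pad of female BALB/cJ mice aged 8 to 10 weeks. Treatment began at a tumor volume of 65 to 100 mm3, and tumors were taken 7 days after treatment. The triple group (IPW+RT+anti-PD-L1) received the TGF beta inhibitor IPW-5371 at 20 mg/kg daily, 10 Gy of focal radiation and an antibody to PD-L1 at 10 mg/kg weekly. The TGFbi+RT group received the inhibitor and the radiation, the RT group the radiation, and the TGFbi group the inhibitor, at the same doses. The Sham group received control IgG at 25 mg/kg. All tumors come from 1 transplant family, and each sample is a whole tumor in which carcinoma and host cells are mixed. The labels number the tumors of a group but do not state that each came from its own mouse, so p-values measure the spread between these tumors.

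Total counts ranged from 11002869 to 17184023 per tumor, with a median of 13302488, and collagen members took 0.755% to 1.94% of them. All 10 genes of a list of identity markers were detected in every group. The list holds keratins, Epcam, Cdh1 and Elf5 of epithelial cells, and also Ptprc of leukocytes and Pecam1 of endothelium. Its sums therefore mix carcinoma and host cells. They were 745 to 1346 CPM in the triple group, 1015 to 1207 CPM in the TGFbi+RT group and 864 to 1004 CPM in the RT group. In the TGFbi group they were 1026 to 1789 CPM and in the Sham group 1046 to 1276 CPM. CPM is the count scaled to library size with TMM factors. Library names carry a code. All RT tumors and triple replicates 2 and 3 have A2304, and the other 10 tumors have A2301, so radiation alone and the code cannot be told apart by direct comparison with Sham. The triple group alone holds both codes, so a model that includes the code takes its effect from triple replicate 1 against replicates 2 and 3. Its triple value is then triple replicate 1 alone against Sham, and its RT value borrows the same difference, so neither is a replicated adjustment. TGFbi+RT replicate 3 and TGFbi replicate 3 are marked as resubmitted libraries. In whole tumors, fewer cells of a type and less RNA per cell cannot be told apart.

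The promoters of 4 members are shown because their genes carry the results that follow. Col4a1 and Col4a2, which encode the partner chains of the main type IV collagen, lie head to head on chromosome 8. Their RefSeq start sites are 11312826 and 11312805, 21 bases apart, so that the 5' ends overlap. The deposited annotation used for the counts starts Col4a2 at 11312829, beyond the Col4a1 end at 11312826, without overlap. The windows are chr8:11312777-11313076, minus strand, for Col4a1 and chr8:11312555-11312854, plus strand, for Col4a2. Each holds 250 bases before the start site and 50 from it on, from RefSeq on GRCm38.p6. Capitals mark the 78 bases that both windows share, read on opposite strands.
Col4a1: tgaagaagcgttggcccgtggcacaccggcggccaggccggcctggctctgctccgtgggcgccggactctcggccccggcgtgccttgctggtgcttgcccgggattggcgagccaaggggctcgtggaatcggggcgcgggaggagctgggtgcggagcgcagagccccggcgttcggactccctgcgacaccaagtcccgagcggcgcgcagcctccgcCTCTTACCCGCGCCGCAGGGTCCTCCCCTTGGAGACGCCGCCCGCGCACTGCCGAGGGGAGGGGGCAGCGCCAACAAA
Col4a2: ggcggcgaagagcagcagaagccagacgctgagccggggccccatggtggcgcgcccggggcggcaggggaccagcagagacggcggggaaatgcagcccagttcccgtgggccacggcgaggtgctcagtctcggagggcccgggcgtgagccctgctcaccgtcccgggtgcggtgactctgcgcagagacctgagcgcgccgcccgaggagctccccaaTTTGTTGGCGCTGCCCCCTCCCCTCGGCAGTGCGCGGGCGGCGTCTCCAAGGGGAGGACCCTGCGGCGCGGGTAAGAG
For the fibrillar genes Col1a2 (chr6:4505368-4505667, plus strand) and Col3a1 (chr1:45311288-45311587, plus strand), capitals mark the letters CAGAC or GTCTG, the core motif of the Smad proteins that act in TGF beta signaling, on either strand.
Col1a2: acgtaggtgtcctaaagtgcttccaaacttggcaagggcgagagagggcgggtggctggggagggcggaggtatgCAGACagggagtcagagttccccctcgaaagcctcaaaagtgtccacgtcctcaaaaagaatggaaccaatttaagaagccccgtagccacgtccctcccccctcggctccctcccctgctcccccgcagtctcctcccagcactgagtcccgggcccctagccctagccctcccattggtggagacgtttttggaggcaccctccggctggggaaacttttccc
Col3a1: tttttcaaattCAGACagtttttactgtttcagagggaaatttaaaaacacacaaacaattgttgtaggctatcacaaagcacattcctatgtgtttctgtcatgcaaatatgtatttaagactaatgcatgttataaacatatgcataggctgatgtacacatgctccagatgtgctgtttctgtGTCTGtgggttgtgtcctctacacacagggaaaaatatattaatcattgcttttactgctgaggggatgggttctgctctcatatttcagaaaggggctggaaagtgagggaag

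Of the 42 members, 35 had a promoter entry. The Smad core CAGAC occurred on either strand in 20 of them (57.1%), against 49.6% of all 32851 promoters of the same length. The GC box GGGCGG occurred in 22 (62.9%), against 35.7% of all. The CCAAT box CCAAT occurred in 13 (37.1%, against 37.4%) and the TATA box TATAAA in 5 (14.3%, against 13.6%). None of these motifs contains another. Col4a1 and Col4a2 each held 1 CCAAT box, with 1 and 3 GC boxes, and neither held a TATA box. The Smad core occurred 1 time in the window of Col4a2 and was not found in that of Col4a1. A match is a run of letters and not a measured binding site.

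Levels of different genes were compared as RPKM, which is CPM per kilobase of summed exon. Col4a1 had the highest mean over the 15 tumors, at 465 RPKM, followed by Col1a1 at 351, Col4a2 at 215, Col3a1 at 148, Col18a1 at 138 and Col1a2 at 122 RPKM. Col18a1 encodes the basement membrane collagen that is the source of endostatin. These 6 genes were the only members with a mean of at least 100 RPKM. A mean of at least 10 RPKM was reached by 19 members, of at least 1 RPKM by 29 and of at least 0.1 RPKM by 40. Col4a3, at 0.0394 RPKM, and Col19a1, at 0.0124 RPKM, were lowest and did not pass the low-count filter, so 40 members were tested.

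The make-up of collagen RNA differed between tumors. Type IV genes held 19.6% to 64.3% of the summed collagen RPKM of a tumor, with a median of 46.9%, and fibrillar genes held 7.06% to 59.6%, with a median of 27.3%. Multiplexins held 5.06% to 19.6%, FACIT genes 3.59% to 8.51%, type VI genes 1.20% to 12.6% and transmembrane genes 1.68% to 6.45%.

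**Figure D1:**
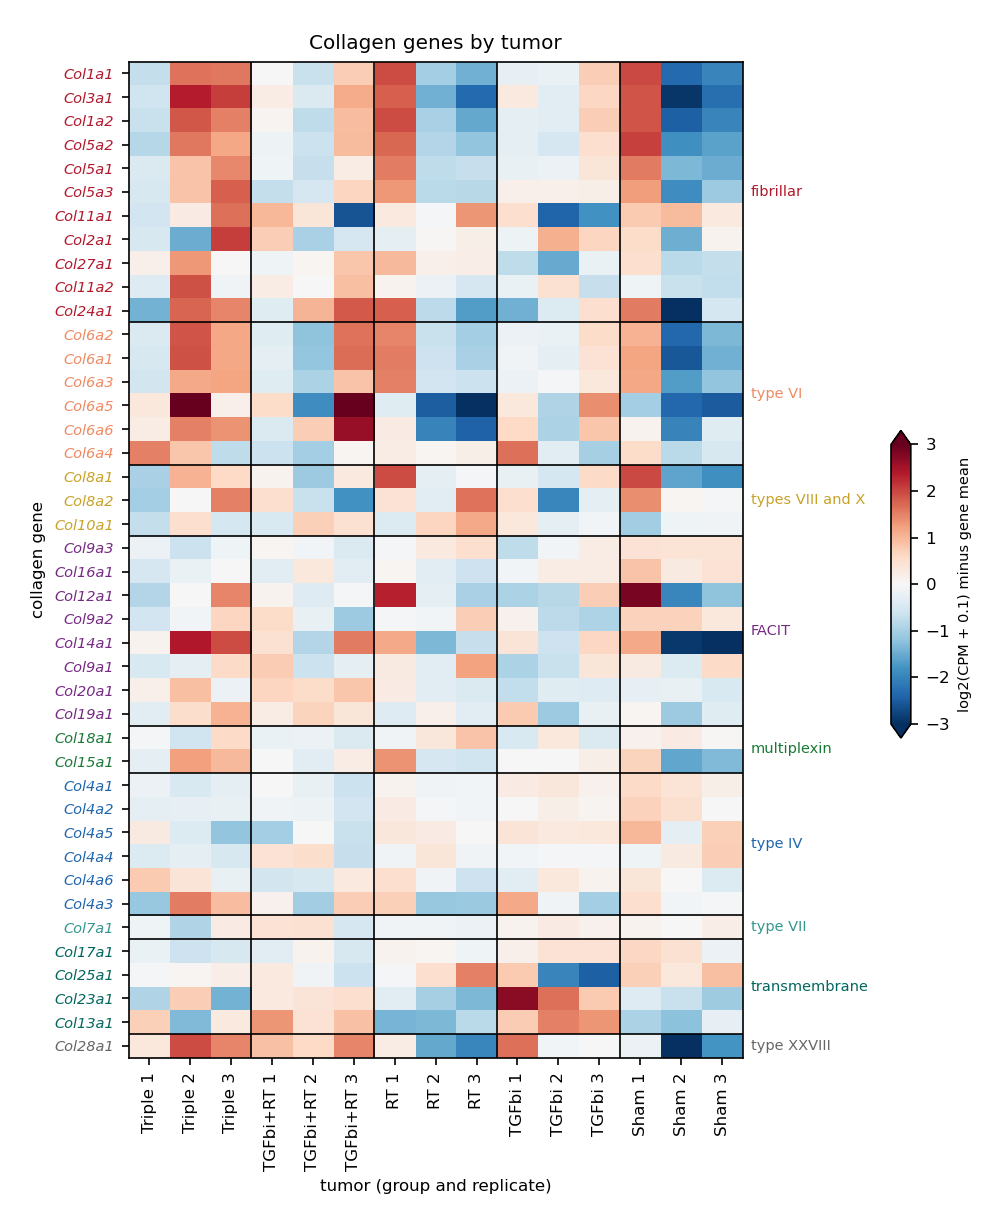
Heat map of the 42 collagen members (down the page, by class and within a class by mean RPKM) in the 15 tumors (across, by group and replicate). Colors give log2(CPM + 0.1) minus the mean of the gene over the tumors, with the scale ending at 3 and -3. Most fibrillar and type VI genes are high in triple replicates 2 and 3, RT replicate 1 and Sham replicate 1, while Col4a1, Col4a2 and Col17a1 are even.

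The fibrillar genes varied more between tumors of a group than between groups. Col1a1, the main chain of type I collagen, had 677, 3400 and 3285 CPM in the triple tumors, 1087, 691 and 1852 CPM in the TGFbi+RT tumors, 4281, 545 and 408 CPM in the RT tumors, 931, 957 and 1846 CPM in the TGFbi tumors, and 4316, 218 and 278 CPM in the Sham tumors. Its highest tumor was 19.8-fold above its lowest, both of them Sham tumors, and every treated group lay within the Sham range. Against Sham the log2 fold change was 0.61 ± 1.11 (SE) in the triple group, -0.41 ± 1.10 in the TGFbi+RT group, 0.12 ± 1.10 in the RT group and -0.37 ± 1.10 in the TGFbi group, with edgeR adjusted p of 0.804, 0.881, 0.999 and 0.959. Without Sham replicate 1, the log2 fold change was 3.30 for triple, 2.28 for TGFbi+RT, 2.81 for RT and 2.33 for TGFbi. Without RT replicate 1 it was -1.75 for RT, and in the model that includes the code, set by triple replicate 1, it was -1.24 for triple and -2.18 for RT.

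Col3a1, which encodes the chain of type III collagen, had 317, 2467 and 2027 CPM in the triple tumors, 558, 353 and 1036 CPM in the TGFbi+RT tumors, 1658, 175 and 95.7 CPM in the RT tumors, 590, 380 and 736 CPM in the TGFbi tumors, and 1776, 63.0 and 99.5 CPM in the Sham tumors. The same 4 tumors were high as for Col1a1, and the groups overlapped. The log2 fold change against Sham was 1.31 ± 1.24 in the triple group, 0.01 ± 1.22 in the TGFbi+RT group, -0.01 ± 1.22 in the RT group and -0.18 ± 1.22 in the TGFbi group. Its highest tumor stood 39.2-fold above its lowest. Without Sham replicate 1 the log2 fold change was 4.30 for triple, 2.99 for TGFbi+RT, 2.98 for RT and 2.80 for TGFbi, and without RT replicate 1 it was -2.25 for RT. The partner chain gene of Col1a1, Col1a2, ranged from 75.6 to 1588 CPM, with 1488 and 1176 CPM in triple replicates 2 and 3.

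Col11a1, which nucleates thin fibrils in cartilage and is often used as a marker of activated fibroblasts in carcinomas, followed another order. It had 25.3, 44.9 and 118 CPM in the triple tumors, 75.2, 48.7 and 6.14 CPM in the TGFbi+RT tumors, 46.4, 36.4 and 93.6 CPM in the RT tumors, 53.6, 7.02 and 10.7 CPM in the TGFbi tumors, and 64.4, 72.8 and 46.2 CPM in the Sham tumors. It was low in TGFbi replicates 2 and 3 and in TGFbi+RT replicate 3, none of them a low tumor for Col1a1. The TGFbi group averaged 23.8 ± 25.9 CPM and the Sham group 61.1 ± 13.6 CPM (SD, n = 3 each), so that the log2 fold change was -1.36 ± 0.87 (edgeR adjusted p = 0.708). It was -2.79 without TGFbi replicate 1 and ran from -2.79 to -0.93 over the alternatives. Col2a1, the main cartilage collagen, ranged from 9.67 to 116 CPM, its highest level being in triple replicate 3. The type V genes Col5a1, Col5a2 and Col5a3, whose products regulate the diameter of type I fibrils, ranged 8.31-fold, 14.8-fold and 12.6-fold over the tumors, and Col27a1 ranged 7.29-fold. Col24a1, the fibrillar gene with the lowest mean, stayed between 0 and 3.41 CPM.

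The large type VI genes, which form beaded filaments around cells, were high in the tumors that were high in Col1a1 and also in TGFbi+RT replicate 3. Col6a1 had 66.1, 347 and 208 CPM in the triple tumors, 76.0, 41.9 and 299 CPM in the TGFbi+RT tumors, 270, 60.3 and 46.9 CPM in the RT tumors, 86.2, 77.0 and 126 CPM in the TGFbi tumors, and 210, 16.0 and 34.1 CPM in the Sham tumors. Every group again overlapped Sham. Col6a2 and Col6a3 ranged 19.2-fold and 9.08-fold over the tumors. Col6a5, a type VI chain of restricted expression, had 142 CPM in TGFbi+RT replicate 3 and 24.0 CPM in triple replicate 2, whereas the other 13 tumors held 0 to 2.34 CPM. Its log2 fold changes therefore rest on these tumors. For TGFbi+RT against Sham it was 8.01 ± 2.38 (edgeR adjusted p = 0.207, and 0.135 to 0.867 over the alternatives). Without TGFbi+RT replicate 3 and triple replicate 2, its log2 fold change for triple against TGFbi+RT was 0.47, against -2.46 with all tumors. Col6a6 and Col6a4 stayed at or below 12.4 and 4.04 CPM, and Col6a4 had the lowest mean of the class.

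Among FACIT genes, Col12a1 and Col14a1, which coat type I fibrils, varied widely. Col12a1 had 78.8, 146 and 404 CPM in the triple tumors, 156, 111 and 139 CPM in the TGFbi+RT tumors, 732, 121 and 74.3 CPM in the RT tumors, 75.3, 81.5 and 242 CPM in the TGFbi tumors, and 1051, 37.3 and 63.2 CPM in the Sham tumors. Sham held both the highest and the lowest tumor. Col14a1 had 30.7, 152 and 111 CPM in the triple tumors, 39.6, 15.5 and 84.0 CPM in the TGFbi+RT tumors, 63.3, 11.2 and 17.8 CPM in the RT tumors, 37.5, 18.6 and 44.1 CPM in the TGFbi tumors, and 63.5, 3.77 and 2.72 CPM in the Sham tumors. It was high in triple replicates 2 and 3, and each group overlapped Sham (log2 fold change of triple 2.07 ± 1.09, edgeR adjusted p = 0.397). Col8a1, a short-chain collagen of vessel walls, ranged from 9.27 to 133 CPM, and its highest and lowest tumors were both Sham.

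Markers of fibroblasts, and in part those of vessel cells, were high in the tumors that were high in these genes. The summed level of 12 fibroblast markers, which include Pdgfra, Dcn, Lum and Postn but no collagen, was 500, 1519 and 1038 CPM in the triple tumors, 533, 390 and 857 CPM in the TGFbi+RT tumors, 1175, 410 and 430 CPM in the RT tumors, 535, 453 and 585 CPM in the TGFbi tumors, and 1590, 308 and 389 CPM in the Sham tumors. None of the 12 was at 0 in any group. The 4 highest sums belonged to the 4 tumors that were highest in Col1a1. The 10 endothelial markers summed to 227 to 563 CPM in the triple group, 191 to 492 CPM in the TGFbi+RT group, 130 to 686 CPM in the RT group, 241 to 340 CPM in the TGFbi group and 130 to 724 CPM in the Sham group, none at 0. The 11 pericyte and smooth muscle markers summed to 640 to 1026, 566 to 1004, 606 to 1057, 444 to 607 and 500 to 1385 CPM in the triple, TGFbi+RT, RT, TGFbi and Sham groups, none at 0. Sham replicate 1 and RT replicate 1 had the highest sums of both lists. Next came triple replicate 2 (563 CPM) and TGFbi+RT replicate 3 (492 CPM) for endothelial markers, with triple replicate 3 at 458 CPM. For pericyte markers triple replicate 3 (1026 CPM) and TGFbi+RT replicate 1 (1004 CPM) came next, with triple replicate 2 at 862 CPM. The part of these markers in the collagen levels was not tested.

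Spread between tumors of a group differed by class, with overlap. The median SD of log2 CPM within groups was 1.26 for 11 fibrillar genes, 1.23 for 6 type VI genes and 1.10 for 3 genes of types VIII and X. It was 0.38 for 5 tested type IV genes and 0.63 for 4 transmembrane genes, against 0.34 for all 16017 genes tested. For 2 multiplexins it was 0.61, and for 7 tested FACIT genes 0.57. FACIT genes ran from 0.30 to 1.55, and so overlapped both fibrillar (0.62 to 1.73) and type IV genes (0.20 to 0.51). Col1a1 was more spread than 98.3% of tested genes and Col3a1 than 99.1%, whereas Col4a1 was more spread than 17.4% and Col4a2 than 23.1%. Differences between group means held a median of 30.2% of the variance of a member, near the 32.1% of all genes tested. They held 77.7% for Col13a1, 74.8% for Col4a1, 73.1% for Col23a1 and 72.7% for Col20a1.

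**Figure D2:**
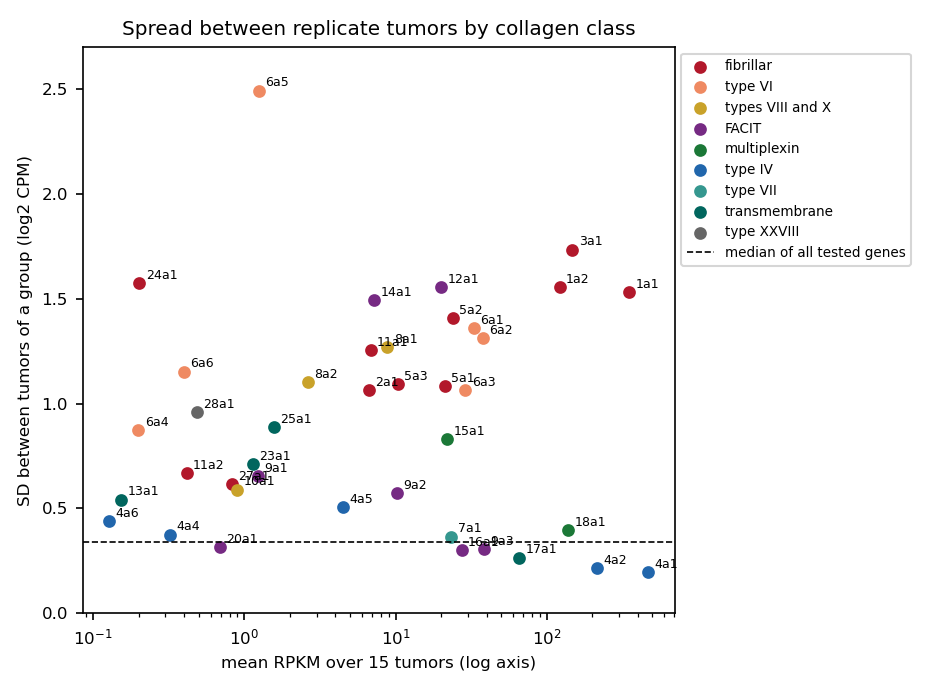
SD of log2 CPM between the 3 tumors of a group, pooled over groups (vertical axis), against the mean RPKM over 15 tumors (horizontal log axis), for the 40 tested members. Each point is a gene, labelled without the letters Col and colored by class, and the dashed line is the median of all tested genes, 0.34. Col1a1, Col1a2 and Col3a1 lie above 1.5, and Col4a1 and Col4a2 lie below the line at similar or higher levels.

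Col4a1 and Col4a2 were lower in both groups that combined the inhibitor with radiation, although no edgeR test passed. Col4a1 had 2674, 2192 and 2506 CPM in the triple tumors, 2978, 2577 and 1909 CPM in the TGFbi+RT tumors, 3245, 2816 and 2823 CPM in the RT tumors, 3539, 3802 and 3291 CPM in the TGFbi tumors, and 4440, 3981 and 3403 CPM in the Sham tumors. Every tumor of the 3 irradiated groups lay below every Sham tumor, while the TGFbi tumors overlapped Sham. The log2 fold change against Sham was -0.68 ± 0.18 in the triple group (edgeR adjusted p = 0.194), -0.66 ± 0.18 in the TGFbi+RT group (adjusted p = 0.207), -0.41 ± 0.18 in the RT group (adjusted p = 0.999) and -0.15 ± 0.18 in the TGFbi group (adjusted p = 0.864). DESeq2 called the gene lower in the triple group (adjusted p = 0.00682) and in the TGFbi+RT group (adjusted p = 0.0136). Over the alternatives the adjusted p ran from 0.00682 to 1 for the triple group and from 0.0136 to 0.655 for TGFbi+RT, and the log2 fold change stayed negative, from -0.80 to -0.56 and from -0.82 to -0.51.

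Markers of other cells moved in the same groups. For triple against Sham, 8 of 9 macrophage markers, 8 of 8 T cell markers and 8 of 10 adipocyte markers had an unadjusted p under 0.05, all higher, beside 14.9% of all genes. For TGFbi+RT against Sham, 6 of 9, 5 of 8 and 6 of 10 had, all higher, beside 15% of all genes. The macrophage markers summed to 407 to 2574 CPM in the triple group, 524 to 1997 CPM in the TGFbi+RT group, 165 to 1005 CPM in the RT group, 355 to 654 CPM in the TGFbi group and 133 to 434 CPM in the Sham group, none at 0. The T cell markers summed to 3.46 to 119 CPM in the triple group, 5.27 to 37.9 CPM in the TGFbi+RT group, 3.93 to 9.67 CPM in the RT group, 2.71 to 8.24 CPM in the TGFbi group, with Cd8a at 0, and 1.23 to 4.71 CPM in the Sham group, with Cd3d and Cd3g at 0. The adipocyte markers summed to 113 to 291.3 CPM in the triple group, 58.8 to 429 CPM in the TGFbi+RT group, 27.1 to 138 CPM in the RT group, 50.9 to 387 CPM in the TGFbi group and 19.8 to 106 CPM in the Sham group, with Adipoq and Retn at 0 in Sham. Their part in the type IV levels was not tested.

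Col4a2 had 1119, 1144 and 1148 CPM in the triple tumors, 1260, 1214 and 910 CPM in the TGFbi+RT tumors, 1596, 1316 and 1280 CPM in the RT tumors, 1352, 1522 and 1426 CPM in the TGFbi tumors, and 2181, 1876 and 1336 CPM in the Sham tumors. Triple and TGFbi+RT tumors lay below every Sham tumor, and RT and TGFbi tumors overlapped Sham replicate 3. The log2 fold change was -0.66 ± 0.18 for the triple group and -0.67 ± 0.18 for TGFbi+RT, with edgeR adjusted p of 0.194 and 0.207. DESeq2 called both, with adjusted p of 0.0228 and 0.0257, within ranges of 0.0228 to 1 and 0.0257 to 0.655 over the alternatives. The minor chain Col4a5 averaged 21.7 ± 10.5 CPM in the triple group, 19.3 ± 7.36 CPM in the TGFbi+RT group, 31.2 ± 3.65 CPM in the RT group, 34.2 ± 1.10 CPM in the TGFbi group and 40.4 ± 16.2 CPM in the Sham group (SD, n = 3 each), and its groups overlapped.

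**Figure D3:**
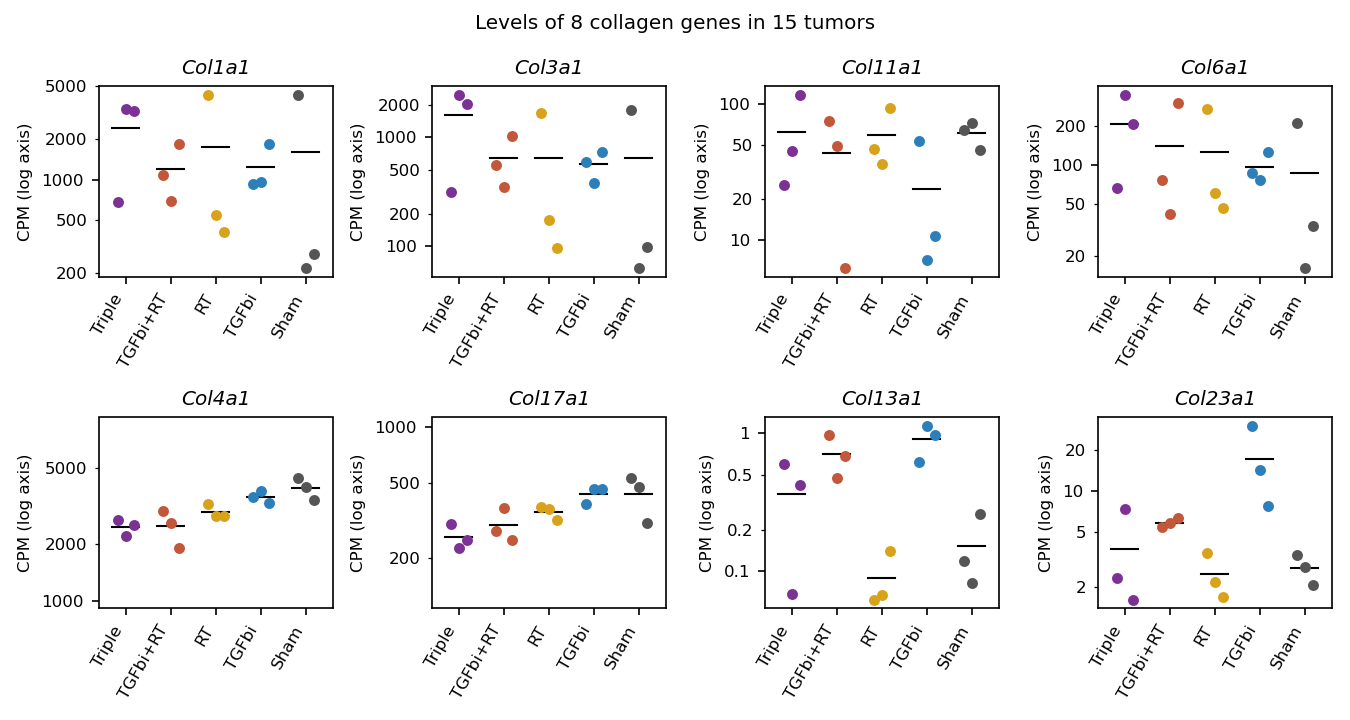
CPM (vertical log axes) of 8 collagen genes in the 15 tumors, by group from triple to Sham. Each point is a tumor, with replicates 1 to 3 from left to right, and bars are group means of 3 tumors. Col1a1, Col3a1 and Col6a1 spread widely inside groups, Col4a1 and Col17a1 differ by 2.33-fold and 2.38-fold over all tumors, and Col13a1 and Col23a1 are high in the TGFbi group.

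Col17a1, Col16a1, Col9a3, Col7a1 and Col18a1 ranged 2.38-fold to 2.79-fold over the tumors, and Col15a1 7.55-fold. Col17a1, a hemidesmosome collagen of basal epithelial cells, had 304, 225 and 249 CPM in the triple tumors, 279, 370 and 249 CPM in the TGFbi+RT tumors, 376, 364 and 317 CPM in the RT tumors, 386, 469 and 466 CPM in the TGFbi tumors, and 536, 477 and 309 CPM in the Sham tumors. The triple tumors lay below every Sham tumor. The log2 fold change of triple against Sham was -0.77 ± 0.21 (edgeR adjusted p = 0.194), and DESeq2 called it with an adjusted p of 0.0263, within 0.0263 to 1 over the alternatives. The 8 basal and myoepithelial markers summed to 1266 to 1592 CPM in the triple group and 1853 to 2419 CPM in the Sham group, none at 0. They summed to 1046 to 2233 CPM in the TGFbi+RT group, 1454 to 1583 CPM in the RT group and 1504 to 3096 CPM in the TGFbi group. For triple against Sham, 3 of the 8 were higher and 5 lower. An unadjusted p under 0.05 was found for 2 higher and 1 lower, beside 14.9% of all genes. The part of these markers in the level of Col17a1 was not tested.

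Col16a1, a FACIT collagen found beside basement membranes and fibrils, had 96.4, 121 and 140 CPM in the triple tumors, 110, 171 and 109 CPM in the TGFbi+RT tumors, 143, 111 and 89.5 CPM in the RT tumors, 129, 159 and 160 CPM in the TGFbi tumors, and 250, 165 and 185 CPM in the Sham tumors. Triple, RT and TGFbi tumors lay below every Sham tumor, and TGFbi+RT replicate 2 overlapped. The log2 fold change was -0.75 ± 0.23 for the triple group and -0.81 ± 0.23 for the RT group, with edgeR adjusted p of 0.214 and 0.999. Col9a3, a chain of type IX collagen, averaged 94.8 ± 31.2 CPM in the TGFbi group and 141 ± 1.92 CPM in the Sham group (SD, n = 3 each), and the TGFbi tumors were all lower. Triple tumors, at 85.6 ± 15.5 CPM, and TGFbi+RT tumors, at 95.4 ± 16.4 CPM, also lay below every Sham tumor. RT tumors, at 127 ± 22.8 CPM, overlapped Sham. Col7a1 ranged from 112 to 286 CPM and Col18a1 from 509 to 1393 CPM over all tumors. Col15a1, the other multiplexin, had 82.4, 238 and 197 CPM in the triple tumors and 161, 34.1 and 40.3 CPM in the Sham tumors, with overlap (log2 fold change 1.13 ± 0.62, edgeR adjusted p = 0.414).

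Col13a1 and Col23a1, transmembrane collagens of cell surfaces and adhesions, were higher with the inhibitor, although the edgeR tests did not pass. Col23a1 had 29.8, 14.3 and 7.76 CPM in the TGFbi tumors, above 3.40, 2.78 and 2.07 CPM in the Sham tumors, without overlap. The TGFbi+RT tumors, at 5.51, 5.82 and 6.31 CPM, also lay above the RT tumors at 3.55, 2.17 and 1.69 CPM, which carry the other library code. Triple tumors had 2.33, 7.42 and 1.60 CPM and overlapped Sham. Col13a1 was low in count, with 33 reads in all in the TGFbi group against 7 in Sham, and 27 in the TGFbi+RT group against 4 in RT. It had 0.616, 1.12 and 0.970 CPM in the TGFbi tumors and 0.119, 0.0819 and 0.259 CPM in the Sham tumors, without overlap. It had 0.967, 0.472 and 0.682 CPM in the TGFbi+RT tumors and 0.0624, 0.0679 and 0.141 CPM in the RT tumors, again without overlap. The triple tumors had 0.600, 0.0681 and 0.422 CPM, from 15 reads, and overlapped Sham.

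The inhibitor averaged over both radiation states, that is TGFbi against Sham and TGFbi+RT against RT, gave a log2 fold change of 2.66 ± 0.50 for Col13a1 (edgeR adjusted p = 0.0927) and 1.94 ± 0.41 for Col23a1 (edgeR adjusted p = 0.103). In its second part TGFbi+RT tumors have code A2301 and RT tumors A2304, so inhibitor and code cannot be told apart there. With the code as a term, set by triple replicate 1, the log2 fold changes were 2.01 and 2.42. DESeq2 called both, with adjusted p of 0.00503 and 0.000756. Over the alternatives the adjusted p ran from 0.00503 to 0.324 for Col13a1 and from 0.000756 to 0.319 for Col23a1. Col28a1, a collagen known from peripheral nerve, gave 1.98 ± 0.60 (edgeR adjusted p = 0.185, DESeq2 adjusted p = 0.0369, range 0.0369 to 0.420). It had 4.48, 1.28 and 1.37 CPM in the TGFbi tumors and 1.19, 0.0819 and 0.324 CPM in the Sham tumors. Triple tumors, at 1.73, 5.58 and 3.97 CPM, and TGFbi+RT tumors, at 2.60, 2.12 and 3.92 CPM, also lay above every Sham tumor, and RT tumors, at 1.62, 0.407 and 0.281 CPM, overlapped. The 7 Schwann cell markers summed to 367 to 462 CPM in the TGFbi group and 424 to 485 CPM in the Sham group, with Cdh19 at 0 in Sham. For the inhibitor over both radiation states, 2 of 6 tested had an unadjusted p under 0.05, both higher, beside 14.3% of all genes. Of the 6, 2 were higher and 4 lower, with a median of -0.08 on the log2 scale. The 10 adipocyte markers were all higher for the inhibitor over both radiation states, at a median of 4.89 on the log2 scale, and 6 had an unadjusted p under 0.05, beside 14.3% of all genes. Their sum was 387, 68.3 and 50.9 CPM in the TGFbi tumors and 106, 19.8 and 26.0 CPM in the Sham tumors, so replicate 1 was highest in both groups, as it was for Col28a1. The part of these markers in the level of Col28a1 was not tested. Col25a1, a transmembrane collagen best known from brain, had 16.9, 2.39 and 1.70 CPM in the TGFbi tumors and 16.1, 12.0 and 18.2 CPM in the Sham tumors, and the groups overlapped.

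**Figure D4:**
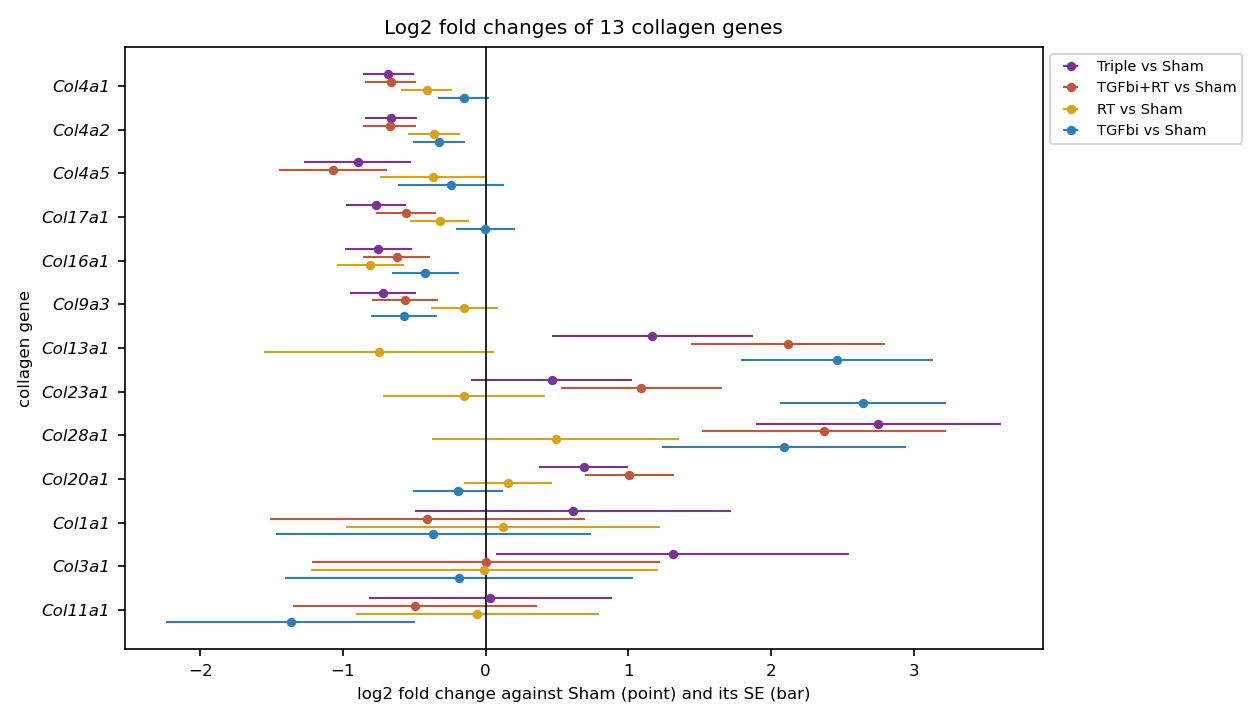
Log2 fold change against Sham (points, horizontal axis) with its SE (bars) for 13 collagen genes, in the triple, TGFbi+RT, RT and TGFbi groups. Col4a1 sits at -0.68 in the triple group and -0.15 in the TGFbi group, Col13a1 and Col23a1 at 2.46 and 2.64 in the TGFbi group, and the bars of Col1a1 and Col3a1 are over 1 log2 unit long on each side.

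Counts over the family were read against all genes tested, with edgeR, Benjamini-Hochberg adjustment and a threshold of 0.05. The shares of all genes beside them are those of edgeR with all 15 tumors. Shares for DESeq2, limma-voom, the model with the code and fits without a tumor are not given here. Member counts from those fits therefore show how the count moves and cannot be read against all genes. For triple against Sham, 0 of 40 members passed, beside 0% of all genes, and 11 had an unadjusted p under 0.05 (4 higher, 7 lower), beside 14.9% of all genes. DESeq2 called 4 members, Col4a1, Col4a2 and Col17a1 lower and Col28a1 higher, and limma-voom called 0. The median log2 fold change was 0.49 over the members and 0.00 over all genes, and the members' median was 1.33 without Sham replicate 1, 0.25 without Sham replicate 2, 0.21 without Sham replicate 3, 0.25 without triple replicate 2 and 0.30 without triple replicate 3. For triple replicate 1 alone against Sham, which is what the model with the code gives, it was -0.54. All 11 fibrillar genes had a positive log2 fold change, with a median of 0.81. That median was 2.42 without Sham replicate 1, 0.25 without Sham replicate 2, 0.47 without Sham replicate 3, 0.28 without triple replicate 2 and 0.34 without triple replicate 3, and 9 to 11 genes stayed positive. For triple replicate 1 alone, 2 of 11 were positive (median -1.03). Of 5 type IV genes, 4 had a negative log2 fold change, with a median of -0.68, and of -0.56 for triple replicate 1 alone. The number with an unadjusted p under 0.05 was 21 without Sham replicate 1, 7 without Sham replicate 2, 6 without Sham replicate 3, 7 without triple replicate 2 and 3 in the model with the code.

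For TGFbi+RT against Sham, 0 of 40 members passed (0% of all genes) and 11 had an unadjusted p under 0.05 (5 higher, 6 lower), beside 15% of all genes. DESeq2 called 2, Col4a1 and Col4a2, and limma-voom called 0. All 5 type IV genes had a negative log2 fold change, with a median of -0.66. The number with an unadjusted p under 0.05 was 7 without Sham replicate 2, 6 without TGFbi+RT replicate 3 and 4 without the 2 resubmitted libraries. Col20a1, a FACIT collagen, averaged 4.37 ± 0.439 CPM in the TGFbi+RT group and 2.17 ± 0.194 CPM in the Sham group (SD, n = 3 each), without overlap. The log2 fold change of TGFbi+RT was 1.01 ± 0.31 (edgeR adjusted p = 0.211). Triple tumors, at 2.36 to 5.11 CPM, also lay above every Sham tumor. RT tumors, at 1.97 to 3.18 CPM, and TGFbi tumors, at 1.58 to 2.07 CPM, overlapped Sham.

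For RT against Sham, 0 of 40 members passed (0% of all genes) and 2, Col4a1 and Col16a1, had an unadjusted p under 0.05, both lower, beside 4.2% of all genes. DESeq2 and limma-voom called 0. Col10a1, the hypertrophic cartilage collagen, had a log2 fold change of 0.98 ± 0.48, and of 0.15 in the model with the code. All RT tumors carry the other library code. The number with an unadjusted p under 0.05 was 14 without Sham replicate 1, 4 without Sham replicate 3 or RT replicate 1, and 1 without Sham replicate 2, RT replicate 2 or RT replicate 3. For TGFbi against Sham, 0 of 40 members passed (0.00624% of all genes) and 5 had an unadjusted p under 0.05 (3 higher, 2 lower), beside 8.48% of all genes. DESeq2 called 1, Col23a1 (adjusted p = 0.00274, against 0.298 by edgeR and 0.00274 to 0.713 over the alternatives), and limma-voom called 0. The number with an unadjusted p under 0.05 was 9 without Sham replicate 1 and 2 without Sham replicate 2.

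Within irradiated tumors, TGFbi+RT against RT called 0 of 40 members (0% of all genes), and 7 had an unadjusted p under 0.05 (6 higher, 1 lower), beside 9.62% of all genes. Col13a1 had a log2 fold change of 2.87 ± 0.73 and Col6a6 of 2.48 ± 0.94, the second with 12.4 CPM in TGFbi+RT replicate 3. Here too the groups differ in library code. The number with an unadjusted p under 0.05 was 3 without TGFbi+RT replicate 3, 4 without TGFbi+RT replicate 1 and 2 without RT replicate 2 or 3. Within inhibitor-treated tumors, TGFbi+RT against TGFbi called 0 of 40 (0% of all genes), and 6 had an unadjusted p under 0.05 (2 higher, 4 lower), beside 6.06% of all genes. The log2 fold change was 1.20 ± 0.32 for Col20a1, -0.51 ± 0.18 for Col4a1, -1.55 ± 0.56 for Col23a1 and -0.55 ± 0.21 for Col17a1, and each had an edgeR adjusted p of 0.789. Triple against TGFbi+RT called 0 of 40 (0% of all genes), with 0 at an unadjusted p under 0.05, beside 1.99% of all genes. Without TGFbi+RT replicate 3 the number was 3 in each of the last 2 comparisons, and it was also 3 without TGFbi replicate 2 in the one against TGFbi, and 3, 2 and 1 without triple replicate 2, triple replicate 3 and TGFbi replicate 1 in the one with triple. DESeq2 and limma-voom called 0 in these 3 comparisons.

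The inhibitor over both radiation states called 0 of 40 members (0.0312% of all genes), and 9 had an unadjusted p under 0.05 (5 higher, 4 lower), beside 14.3% of all genes. DESeq2 called 3, the genes given above, and limma-voom 0. Without TGFbi+RT replicate 3 the number with an unadjusted p under 0.05 was 4. Radiation over both inhibitor states called 0 of 40 (0% of all genes), and 7 had an unadjusted p under 0.05 (2 higher, 5 lower), beside 6.12% of all genes. Without Sham replicate 1 that number was 11. Col4a1 had a log2 fold change of -0.46 ± 0.13 there and Col20a1 0.68 ± 0.22. The interaction of inhibitor and radiation called 0 of 40 (0% of all genes), with Col20a1 alone at an unadjusted p under 0.05 (1.04 ± 0.44, adjusted p = 1.00), beside 3.8% of all genes. That number was 5 without Sham replicate 1, 3 without RT replicate 1, 2 without TGFbi replicate 3 or triple replicate 2, and 0 without Sham replicate 2, TGFbi+RT replicate 3, RT replicate 2 or RT replicate 3. The test of any difference among the 5 groups called 0 of 40 (0% of all genes), with 10 at an unadjusted p under 0.05, beside 10.8% of all genes. DESeq2 called 5 there, Col4a1, Col4a2, Col13a1, Col17a1 and Col23a1, and 0 in the radiation and interaction tests, and limma-voom called 0 in all 3. These comparisons share tumors and are not independent of each other.

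Chains that assemble together were compared over the 15 tumors in 11 pairs, on log2 CPM, with permutation tests of 100000 resamples adjusted over the pairs. Chains that do not assemble were not compared. Most fibrillar and type VI genes were high in the same tumors, so a high r does not show that partners are more tied than other members. For Col1a1 and Col1a2, r was 0.997 and rho 0.989. For Col6a1 and Col6a2, r was 0.998 and rho 0.996, and for Col6a1 and Col6a3 they were 0.973 and 0.939. For Col5a1 and Col5a2, r was 0.963 and rho 0.979. The permutation p of each was 1e-05, the smallest that these permutations can give, and 2.75e-05 after adjustment for r (2.2e-05 for rho). For Col4a1 and Col4a2, r was 0.917 (permutation p = 2e-05, adjusted 4.4e-05) and rho 0.918 (permutation p = 1e-05, adjusted 2.2e-05). The permutations moved tumors freely between treatment groups, so r and p include differences between groups. Group means held 74.8% of the variance of Col4a1 and 65.2% of that of Col4a2. The correlation within groups was not tested.

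These 5 relations held without the 2 tumors farthest from the median of the first gene, with r of 0.997, 0.998, 0.971, 0.941 and 0.850 in the same order. Within code A2301 (n = 10) r was 0.997, 0.998, 0.975, 0.969 and 0.935, and within A2304 (n = 5) it was 0.998, 1.00, 0.965, 0.952 and 0.917. Each code still holds tumors of different treatment groups. The RPKM ratio of Col1a1 to Col1a2 stayed between 2.50 and 3.24 and that of Col4a1 to Col4a2 between 1.86 and 2.54. The head-to-head promoters printed above belong to the second of these pairs.

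Other partners were less tied. Col9a1 and Col9a3 had an r of 0.572 (permutation p = 0.0262, adjusted 0.048) and a rho of 0.504 (adjusted permutation p = 0.105), with r of 0.511 without the 2 farthest tumors, 0.643 within A2301 and 0.539 within A2304. The other 5 pairs did not pass. Their r was 0.472 for Col9a1 and Col9a2, 0.382 for Col8a1 and Col8a2, 0.238 for Col4a5 and Col4a6, -0.244 for Col11a1 and Col11a2, and -0.390 for Col4a3 and Col4a4, whose counts were low. The RPKM ratio of Col11a1 to Col11a2 ran from 1.23 to 51.3. As background, type XI collagen is built from both of these chains, and Col11a1 also assembles with type V chains.

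**Figure D5:**
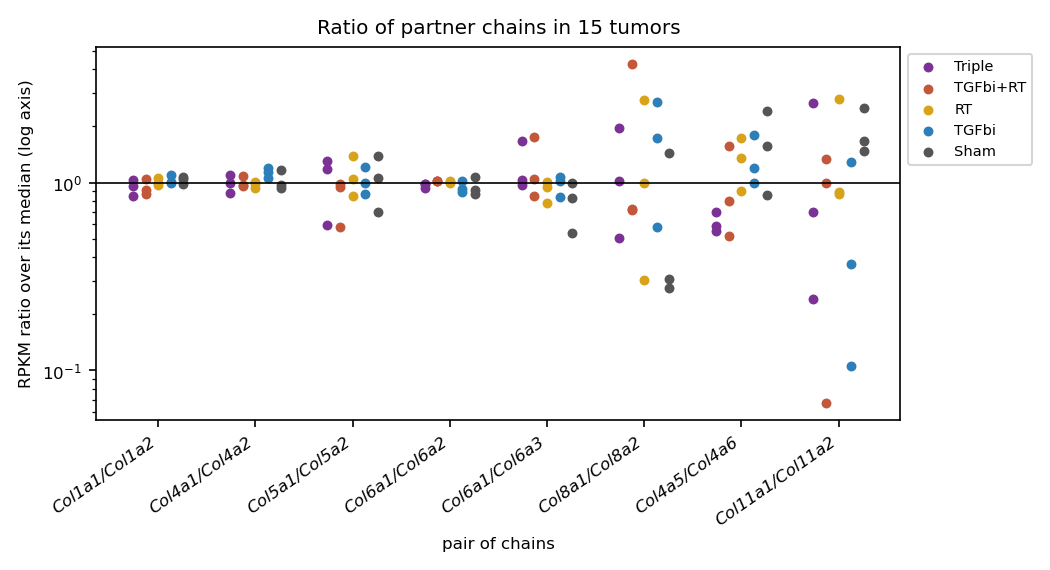
RPKM ratio of 8 pairs of partner chains in the 15 tumors, divided by the median ratio of the pair (vertical log axis), with groups colored from triple to Sham. Each point is a tumor. The ratios of Col1a1 to Col1a2 and of Col6a1 to Col6a2 stay close to their medians, and that of Col11a1 to Col11a2 spreads from 1.23 to 51.3 before division.

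Genes that make, cut and sense collagen were read from lists, and edgeR called none of them in any comparison. For the inhibitor over both radiation states, 4 of 20 tested genes of collagen folding and hydroxylation had an unadjusted p under 0.05, all lower, beside 14.3% of all genes, with a median log2 fold change of -0.28 over the list, beside -0.01 over all genes. Serpinh1, the collagen chaperone HSP47, gave -0.63 ± 0.19 there (edgeR adjusted p = 0.188). It had 219, 156 and 155 CPM in the TGFbi+RT tumors, below the RT tumors at 336.5, 263 and 372 CPM, which carry the other library code. The TGFbi tumors (164, 213 and 216 CPM) overlapped Sham (364, 208 and 202 CPM). Mia3, an export factor for procollagen, had -0.33 ± 0.13 for TGFbi against Sham (edgeR adjusted p = 0.504).

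Collagen receptors had 2 of 10 tested genes with an unadjusted p under 0.05 for the inhibitor, both lower, beside 14.3% of all genes. Ddr2, a receptor kinase for fibrillar collagen, had 147, 113 and 97.9 CPM in the TGFbi tumors and 170, 192 and 198 CPM in the Sham tumors, without overlap. Its log2 fold change was -0.65 ± 0.16 there (edgeR adjusted p = 0.298). Lair1, an inhibitory collagen receptor of leukocytes, had 62.4 CPM in triple replicate 2 and 49.5 CPM in TGFbi+RT replicate 3, whereas the other 13 tumors held 1.39 to 12.1 CPM. The 9 macrophage markers were also highest in these tumors, at 2574 and 1997 CPM, against 133 to 1097 CPM in the others, and their part in the level of Lair1 was not tested.

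For the inhibitor over both radiation states, the cross-linking enzymes had 1 of 7 tested genes with an unadjusted p under 0.05, lower, beside 14.3% of all genes, and a median of -0.36. The procollagen proteases had 0 of 7, the list of degrading proteases and uptake receptors 1 of 15, higher, and the fibril-associated proteoglycans 1 of 16, higher. This degradation list also holds Timp1, Timp2 and Timp3, which are inhibitors of metalloproteinases. Radiation over both inhibitor states gave 0 of 20 folding genes, 0 of 7 cross-linking enzymes, 0 of 7 procollagen proteases and 0 of 15 genes of the degradation list. It gave 2 of 10 receptors, both higher, and 1 of 16 proteoglycans, higher, beside 6.12% of all genes. The 15 tested genes of the degradation list, inhibitors included, all had a positive log2 fold change for radiation, with a median of 0.49, and none passed. In the same contrast 9 of 9 macrophage markers (median 1.12) and 8 of 8 T cell markers (median 2.74) had a positive log2 fold change. Of these, 1 and 5 had an unadjusted p under 0.05, and their part in the values of the degradation list was not tested. Tgfb1, a ligand of the TGF beta pathway, had a log2 fold change of 0.43 ± 0.32 for the inhibitor (edgeR adjusted p = 0.565), and Tgfbr1, a receptor of the pathway, one of -0.13 ± 0.25 (edgeR adjusted p = 0.838).

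Exons of 5 members overlap those of another gene in the deposited annotation. The overlap covered 22.2% of the exon length of Col6a1, 18.4% of Col1a2, 8.08% of Col9a3 (with Tcfl5), 4.39% of Col5a1 and 0.391% of Col7a1 (with Mir711). Except for Mir711 the partners lie on the opposite strand, and the strand setting of the counting was not given in the sources used here, so reads of these stretches cannot be assigned.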

How the data were processed

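The deposited table holds read counts per Entrez gene and library, with no normalization, and the deposited annotation adds other values, the exon coordinates and summed exon lengths. Genome build GRCm38 is given per the submitters' processing notes, and the column names per the file headers mention Subread. The aligner settings, strand setting and annotation release are not given in the sources used here. Of 27179 Entrez genes, 25275 received a mouse symbol from the reference names.

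Counts were fitted in R 4.3.3 with edgeR 4.0.16. The default low-count filter left 16017 genes, libraries were scaled by TMM (factors 0.919 to 1.05), and a quasi-likelihood model with 1 mean per group was fitted to all 15 tumors, with 10 residual degrees of freedom and a common biological coefficient of variation of 0.364. The 10 contrasts and a test of any difference among the groups were adjusted by Benjamini-Hochberg over all genes, with a threshold of 0.05. Fold changes are given with the standard error of the fit. DESeq2 1.42.0, limma-voom (limma 3.58.1), other scalings and filters, the replicate number or library code as a term, and the omission of tumors were the alternatives. Log2 CPM used a prior count of 2. The scripts were tested on simulated counts.

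The members and gene lists were chosen with earlier results of these data known. Named are the 4 genes Col1a1, Col3a1, Col4a1 and Col11a1, the 3 highest and the lowest member of a class by mean RPKM, up to 4 members with the smallest p in each contrast, and the list genes with the smallest p in the test of any difference. Other members and list genes named beside them were chosen after their values were seen. Rn45s, a ribosomal RNA precursor gene that is no member, took 7.06% to 13.0% of the counts of a tumor. No pair of tumors looked like 1 library counted again, with a chi-square per gene of 14.0 to 129 over genes with at least 20 counts. Precision is set by the 3 tumors of a group more than by depth.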

Additional observations from a re-analysis of the deposited data

Results flagged for a closer look

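The internal reference library, which is no tumor of a group and entered no comparison, held 9003730 counts. In it 19 members were higher than in any Sham tumor, and 15 were higher than in any of the 15 tumors. Col12a1 had 132 RPKM in the reference against at most 90.2 RPKM in a Sham tumor, Col10a1 9.65 RPKM against 0.766 RPKM, and Col20a1 7.24 RPKM against 0.547 RPKM. There were 9 members below every tumor, among them Col17a1 at 0.880 RPKM, and Col2a1 and Col9a1 with 0 counts. The labels do not say which tissue or mixture the reference holds, and the difference was not tested.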

How the results depend on the processing

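The count of called members was 0 by edgeR in all 11 tests, and so it was by limma-voom and with the other scalings, filters, terms and omissions given here, each left-out tumor included. An omission of tumors chosen by their Col1a1 level was also tried once, and members passed there. It is not reported because it picks tumors by a measured outcome. DESeq2 gave 5 in the test of any difference, 3 for the inhibitor over radiation states, 1 for TGFbi against Sham, 2 for TGFbi+RT against Sham and 4 for triple against Sham, and 0 in the others. The share of all genes that DESeq2 called is not given here, so its counts cannot be read against all genes. The fit with only the groups of the contrast has no value for the test of any difference. Of 53 named log2 fold changes, 40 kept their sign in all settings, and 51 of 1426 alternative values had the other sign. Most were named for the smallest p of a contrast in these data, so these counts do not measure how stable the members are in general. The changes of sign were in Col1a1, Col3a1, Col11a1 and Col6a5. Without each tumor in turn, Col1a1 ran from -1.75 to 2.81 for RT against Sham, -0.88 to 2.33 for TGFbi and -0.93 to 2.28 for TGFbi+RT. Col3a1 ran from -2.25 to 2.98, -0.72 to 2.80 and -0.54 to 2.99 in the same comparisons. Col11a1 ran from -0.56 to 0.19 for RT, -2.79 to -0.93 for TGFbi, -1.16 to 0.00482 for TGFbi+RT and -0.81 to 0.38 for triple. Col6a5 ran from -1.24 to 7.29 in the interaction and -5.55 to 3.59 for triple against TGFbi+RT. With the replicate block, Col1a1 gave 0.54 for TGFbi and 0.41 for TGFbi+RT, and Col3a1 0.19 for RT and 0.86 for TGFbi. With the library code as a term, a fit that rests on triple replicate 1, Col1a1 gave -2.18 for RT and -1.24 for triple, Col3a1 -1.03 and Col11a1 -1.27 for triple. By limma-voom, Col1a1 gave 0.90 for TGFbi and 0.82 for TGFbi+RT, Col3a1 1.30 for TGFbi and 0.44 for RT, Col11a1 -0.25 for triple, and Col6a5 0.0191 for triple against TGFbi+RT. Col3a1 for TGFbi+RT, at 0.01, was -0.0138 with a minimum of 10 counts, -0.0144 with no filter but 1 count, -0.00336 by DESeq2 and -0.00367 with RLE size factors. Without the 2 resubmitted libraries it was -0.51, Col11a1 0.0175 for TGFbi+RT, and Col6a5 -0.43 in the interaction and 3.59 for triple against TGFbi+RT. Without TGFbi+RT replicate 3 and triple replicate 2 these were -0.52, 0.00676, -1.22 and 0.47. The correlation of Col9a1 and Col9a3 had an r of 0.643 within A2301 (adjusted permutation p = 0.0836) and 0.576 without the 2 tumors just named (adjusted permutation p = 0.0654), and 0.450 to 0.661 without each tumor in turn. That of Col9a1 and Col9a2 ran from 0.372 to 0.602. Leaving out tumors for the correlations was added after seeing the data. The cause of these shifts was not tested, beyond the weight of the left-out tumor. Replicate numbers did not pair the tumors. Over 30 pairs with the same number the correlation of deviations had a median of -0.050 and was over 0.1 in 13, and 6 tumors correlated best with their own number. Low counts limit Col13a1, Col4a3 and Col19a1.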
